A study of Mus musculus with 6 samples.

Results

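The guanylate-binding proteins (GBPs) and immunity-related GTPases (IRGs) are described here through 10 mouse genes, Gbp2b (older symbol Gbp1), Gbp2, Gbp3, Gbp5, Gbp6, Gbp7, Iigp1, Igtp, Irgm1 and Tgtp1, out of 20018 genes that could be named on the array. They were read by 14 of 55681 probes, found through the RefSeq accession of each probe, and lay on 23 spots per array, of which Igtp took 10. The genes were selected on their scaled signals in the contrast between knockout and wild type, Gbp2b for being higher and other interferon genes for being lower, so their differences in that contrast are given as a description without a test. The cells were cultured lung fibroblasts from Mmp19 knockout mice (3 arrays) and from wild-type mice (3 arrays). Mmp19 is a secreted metalloproteinase of the extracellular matrix. All mice of both groups had received 0.08 units of bleomycin, a drug used to bring on lung fibrosis in mice, through the trachea, so no group was free of bleomycin. Lung fibroblasts were taken on day 21 and incubated for 72 hours; an interferon treatment is not among the labels. The labels call the mice female and 11 weeks old, and give neither a strain nor which cells of the lung were lost or kept in culture. Total RNA was hybridised to 1-colour Agilent arrays, and the study looked for expression signatures of Mmp19 in fibroblasts.

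GBPs are large GTPases of the dynamin superfamily that gather on bacteria and on the vacuoles that hold intracellular pathogens, where they break membranes and help to start inflammasome signalling. Some of them, Gbp2 and Gbp5 among them, are anchored to membranes by a prenyl group. IRGs are smaller GTPases with related work: Iigp1 (Irga6) and Tgtp1 (Irgb6) are effectors that load onto the pathogen's vacuole, while Irgm1 and Igtp (Irgm3) are regulators that sit on the cell's own membranes and hold the effectors inactive there. Interferon gamma induces most members of both families through its receptor, the kinases Jak1 and Jak2 and promoter elements named GAS, and through Irf1, which binds the ISRE. Type I interferons act on ISRE elements too. Inbred mouse strains are known to differ in whether interferon induces Gbp2b.

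Facts of the whole series bear on these values. The 75th percentile of processed signal, to which each array was scaled, ran from 138 to 328 in the knockout and from 190 to 290 in wild type, and 43.1% to 52.5% of spots on knockout arrays and 44.6% to 54.5% on wild-type arrays were well above background. Mmp19 itself was detected on no knockout array and on every wild-type array, and the knockout level was lower by at least 5.33-fold (limma adjusted p = 0.016, and 0.0271 with slide as a block), on 1 probe whose place relative to the deleted part the labels do not give. Wild-type replicate 2 stood apart, correlating at 0.939 and 0.960 with wild-type replicates 1 and 3, which correlated at 0.984 with each other. Values without wild-type replicate 2 are therefore given for a number of genes and lists below. Among the knockout arrays replicates 1 and 2 correlated at 0.958, and replicate 3 correlated at 0.980 and 0.986 with them. Xist was well above background on 3 knockout and 0 wild-type arrays although all mice are labelled female, and the Y-linked Eif2s3y and Ddx3y were above it on all 6 arrays, lower in the knockout by 3.21 and 2.47 on the log2 scale (limma adjusted p = 0.112 and 0.139). On the wild-type arrays this goes against the label of female, and every knockout array held both Xist and Y-linked signal. A difference in the animals' sex and the genotype cannot be told apart. Of 10 fibroblast markers 9 were well above background on all 6 arrays, 2 rose in the knockout (limma; Col1a1 and Col1a2, neither of which passed when slide was a block), and their summed scaled signal was 1350 to 1460 in the knockout, against 874 to 1140 in wild type. Of 6 mesothelial markers 5 rose in the knockout (limma; 4 of them also with slide as a block, without Lrrn4 at an adjusted p of 0.0528), with a summed signal of 34.5 to 85.2 against 2.01 to 9.33 in wild type. Of 9 macrophage and dendritic cell markers, cells that also make GBPs, none passed. Itgam, Csf1r, Cd14 and Marco were well above background on all 6 arrays, and Itgax and Mrc1 on none. Ptprc, a marker of leukocytes, was above it on 1 array of each group, and Adgre1 on 2 knockout arrays and 1 wild-type array. Lyz2 was above it on 3 knockout arrays and 1 wild-type array, with a difference of 1.02 (limma adjusted p = 0.135). The summed signal of the 9 was 48.1 to 110 in the knockout, against 58.7 to 71.5 in wild type. Most of this sum was the signal of Itgam alone, so it says little about the other markers. Of 8 T and NK cell markers, cells that make interferon gamma, none passed. Cd3e, Cd4 and Nkg7 were well above background on all 6 arrays, and Cd2, Cd3g, Cd8a, Gzmb and Klrd1 on none. The summed signal of the 8 was 6.11 to 8.24 in the knockout, against 5.43 to 7.43 in wild type. The part of any of these in the values below was not tested, and in RNA from whole cultures fewer cells of a type and less RNA per cell cannot be told apart.

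The stretch of 250 bases before the start site was searched in each gene for 2 interferon elements, since these genes are known for them, and 5 of these stretches are printed because they show the arrangements found. The GAS element was searched as TTCNNNGAA, which is its own reverse complement, and the core of the ISRE as GAAA, any 2 bases and GAAA again, or, on the other strand, TTTC, any 2 bases and TTTC; no match of one motif shared bases with a match of the other. RefSeq promoter sequences of the mouse build GRCm38.p6 were at hand for 8 of the 10 genes, and Gbp6 and Iigp1 were not analysed here. Sequences run 5′ to 3′ on the gene's own strand, and capitals mark the matches.

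Gbp2b, chr3:142594597-142594846, plus strand: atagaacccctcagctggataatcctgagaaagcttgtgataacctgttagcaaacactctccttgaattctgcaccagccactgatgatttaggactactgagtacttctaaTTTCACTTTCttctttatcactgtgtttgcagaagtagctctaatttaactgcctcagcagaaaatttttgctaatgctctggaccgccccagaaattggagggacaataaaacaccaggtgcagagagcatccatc

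Gbp2, chr3:142620413-142620662, plus strand: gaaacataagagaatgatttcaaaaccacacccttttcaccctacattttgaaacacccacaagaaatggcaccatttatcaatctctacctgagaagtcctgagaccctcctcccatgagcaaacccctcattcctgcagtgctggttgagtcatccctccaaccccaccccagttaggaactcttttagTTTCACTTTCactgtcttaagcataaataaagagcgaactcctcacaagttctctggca

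Gbp3, chr3:142559794-142560043, plus strand: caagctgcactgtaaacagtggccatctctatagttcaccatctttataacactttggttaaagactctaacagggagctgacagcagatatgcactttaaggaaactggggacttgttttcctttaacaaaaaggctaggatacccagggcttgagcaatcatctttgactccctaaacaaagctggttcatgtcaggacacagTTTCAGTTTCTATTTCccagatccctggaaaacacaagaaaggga

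Igtp, chr11:58199306-58199555, plus strand: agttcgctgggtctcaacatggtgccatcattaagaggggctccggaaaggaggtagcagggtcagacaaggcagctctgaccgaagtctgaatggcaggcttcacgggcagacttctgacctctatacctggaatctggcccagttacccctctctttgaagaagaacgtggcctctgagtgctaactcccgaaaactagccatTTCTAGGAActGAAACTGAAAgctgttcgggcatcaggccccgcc

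Tgtp1, chr11:48992247-48992496, minus strand: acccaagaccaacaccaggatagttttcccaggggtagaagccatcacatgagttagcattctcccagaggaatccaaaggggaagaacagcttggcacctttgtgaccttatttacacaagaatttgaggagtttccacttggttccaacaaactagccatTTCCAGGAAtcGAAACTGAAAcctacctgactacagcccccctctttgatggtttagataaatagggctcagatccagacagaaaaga

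All 8 genes held an ISRE core in at least 1 window, against 2.98% of the 32851 windows of the whole table, and 4 (Gbp5, Gbp7, Igtp and Tgtp1) held a GAS element, against 7.02%. Gbp2b and its neighbour Gbp2 held the same 10 letters, TTTCACTTTC, at -137 and -59 from the start site, and no GAS match. Gbp3 held a pair of overlapping ISRE cores at -45 and -39 in the first of its 2 windows and none in the other, and Irgm1 likewise a pair at -30 and -24. Igtp and Tgtp1 held a GAS element followed, after 2 bases, by GAAACTGAAA, at -45 and -34 in Igtp and at -88 and -77 in Tgtp1. Irgm2 and Tgtp2, their relatives on chromosome 11, had the same order and spacing. Gbp5 held GAS matches at -245 and -52 and an ISRE core at -165, and Gbp7 GAS matches at -106 and -87 and an ISRE core at -53. A match describes the letters only, and no binding was measured.

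**Figure D1:**
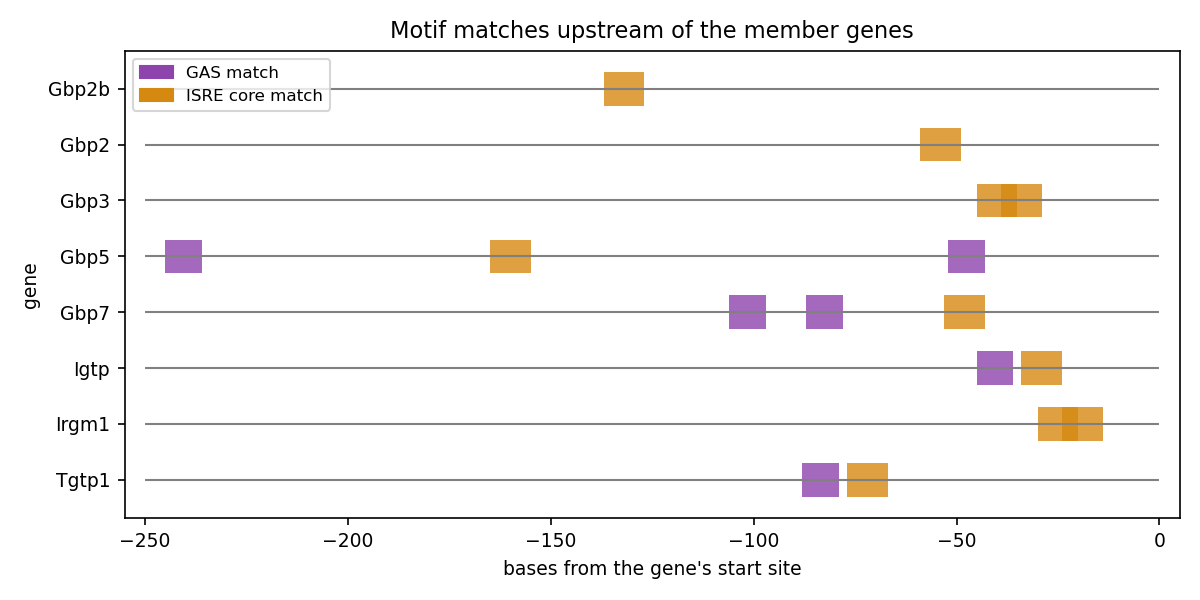
Matches of the GAS element (purple) and of the ISRE core (orange) in the 250 bases before the start site of 8 GBP and IRG genes (for Gbp3, the first window), as bases from the start site (0), with each gene's sequence running left to right. Every gene has at least 1 ISRE core, and the GAS and ISRE matches of Igtp and Tgtp1 lie side by side.

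Gbp2b was the member that set the groups furthest apart: it was detected in knockout fibroblasts and lay at background in wild-type fibroblasts. On its brighter probe, A_55_P2097219, the processed intensity was 57.7, 255 and 128 on knockout replicates 1, 2 and 3, against 4.08, 4.99 and 3.66 on wild-type replicates 1, 2 and 3. After scaling, as log2 signal minus the array's 75th percentile, these were -1.26, -0.36 and -0.94 in the knockout and -5.54, -5.41 and -6.31 in wild type. All 3 knockout arrays were well above background and no wild-type array was, and the groups did not overlap. The means were -0.86 ± 0.46 in the knockout and -5.75 ± 0.49 in wild type (SD, n = 3 each). Because the wild-type level is only bounded, the difference is given as at least 7.38-fold higher in the knockout, where each wild-type array on which the probe was dimmer than the array's dimmest detected probe was counted at the level of the dimmest detected one.

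A second Gbp2b probe, A_51_P398766, gave the same picture. Its intensity was 43, 158 and 71.4 on the knockout arrays, against 4.64, 6.19 and 3.8 on the wild-type arrays. It too was well above background on 3 knockout and 0 wild-type arrays, at least 4.7-fold higher in the knockout. This pattern of detection was met by 135 of all 55681 probes (0.242%). The measured log2 differences were 4.90 and 4.06, but their size rests on wild-type signals at background, and only the bounds above hold for the fold. Each slide carried 1 array of each genotype with the same replicate number, and within the slides the brighter probe differed by 4.28, 5.05 and 5.37. Without wild-type replicate 2 the differences were 5.07 and 4.30. With normexp background correction, whose offset is added to every signal and shrinks the differences of dim probes most, they were 1.51 and 1.13, and the groups stayed apart on both probes: on the brighter one the values were -0.79, -0.24 and -0.64 in the knockout, against -1.87, -1.99 and -2.33 in wild type.

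**Figure D2:**
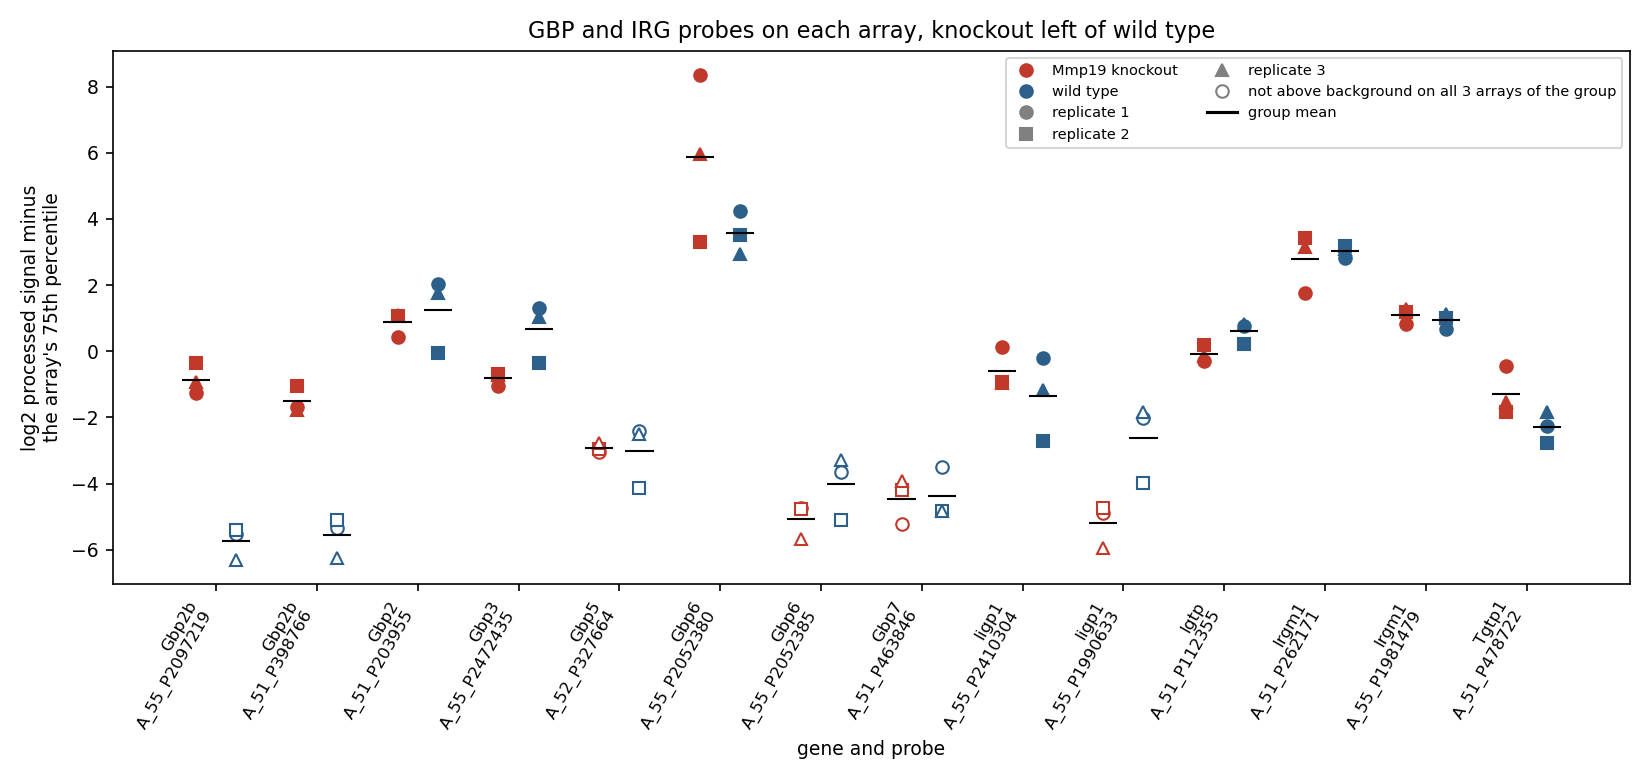
Scaled log2 signal (vertical axis, log2 processed signal minus the array's 75th percentile) of the 14 probes of the 10 genes on each array, knockout (red) left of wild type (blue); symbols give the replicate, black bars the group mean, and open symbols a group in which the probe was not well above background on every array. Gbp2b is filled in the knockout and open near -5.75 and -5.57 in wild type, while most other probes overlap between the groups.

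The genes on either side of Gbp2b did not share its difference. Along chromosome 3 the order is Bmpr1b, Pdlim5, Gbp5, Gbp7, Gbp3, Gbp2b, Gbp2, Kyat3 and Gtf2b. Gbp3, a GBP that lies directly before Gbp2b, had scaled log2 signals of -1.05, -0.70 and -0.71 on the knockout arrays, against 1.30, -0.35 and 1.03 on the wild-type arrays. Every knockout array was below every wild-type array, but wild-type replicate 2 lay closer to the knockout arrays than to the rest of its group. The mean was -0.82 ± 0.20 in the knockout and 0.66 ± 0.88 in wild type (SD, n = 3 each), a log2 difference of -1.48 ± 0.44 (SE), or 2.79-fold lower in the knockout. Within slides it was -2.35, -0.36 and -1.74. Without wild-type replicate 2 it was -1.99, and without wild-type replicate 1 it was -1.16.

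Gbp2, which recruits to vacuoles of intracellular parasites and lies directly after Gbp2b, gave 0.44, 1.07 and 1.09 in the knockout, against 2.04, -0.04 and 1.76 in wild type. The knockout arrays fell between wild-type replicate 2, the lowest of all 6, and the other wild-type arrays, so the groups overlapped and the log2 difference of -0.39 ± 0.55 (SE, n = 3 per group) was smaller than its error. It was -1.04 without wild-type replicate 2, and 1.11 on the slide that held that array, against -1.61 and -0.67 on the others.

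Gbp5, a promoter of inflammasome assembly, was well above background on 2 arrays of each group and was too dim to be tested. Its scaled signals were -3.06, -2.96 and -2.77 in the knockout, against -2.41, -4.15 and -2.51 in wild type, with the knockout arrays again between wild-type replicate 2 and the others. The group means of Gbp5 differed by 0.09, and by -0.47 without wild-type replicate 2. Gbp7, a GBP tied to oxidative and autophagic defence, was not well above background on any of the 6 arrays, so no fold is given. The non-GBP neighbours Bmpr1b, Pdlim5, Kyat3 and Gtf2b differed by -0.30, -0.01, 0.02 and 0.01, and none passed the limma threshold.

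**Figure D3:**
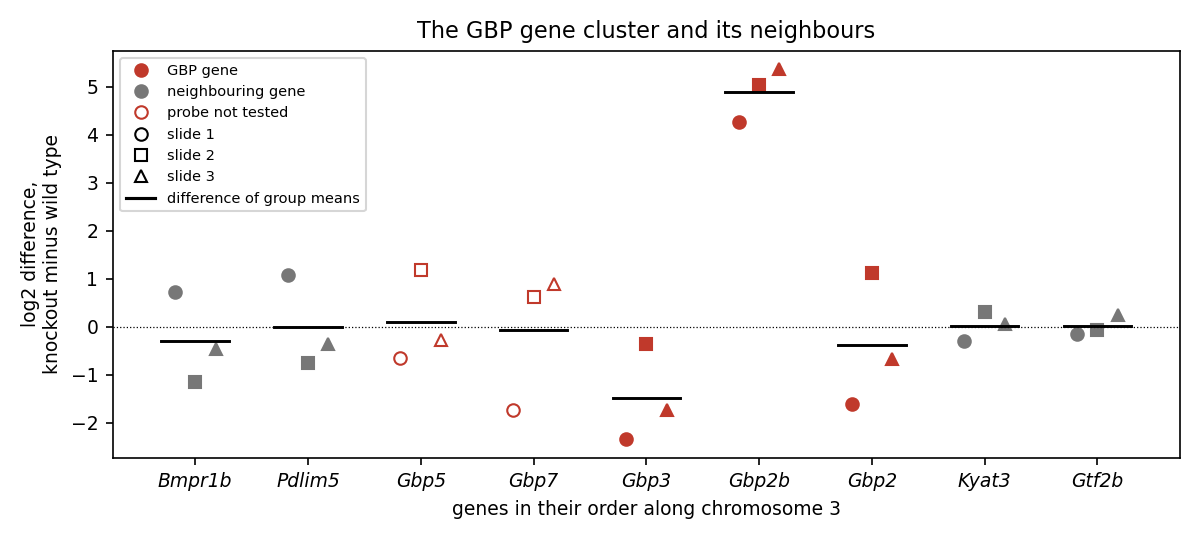
Log2 difference, knockout minus wild type (vertical axis), of the genes of the GBP cluster (red) and their neighbours (grey) in their order along chromosome 3; symbols are the 3 slides, black bars the difference of the group means, and open symbols probes too dim to be tested. Gbp2b stands at 4.90 between Gbp3 at -1.48 and Gbp2 at -0.39.

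Gbp6, a GBP encoded in a second cluster on chromosome 5, varied among the knockout replicates by more than the groups differed, and its probes disagreed. On A_55_P2052380 the intensity was 45300, 3250 and 15200 on the knockout arrays, against 3560, 2430 and 2210 on the wild-type arrays. Knockout replicates 1 and 3 were above all wild-type arrays, while knockout replicate 2 lay inside the wild-type range. The scaled log2 mean was 5.87 ± 2.52 in the knockout and 3.56 ± 0.65 in wild type (SD, n = 3 each), a difference of 2.31 ± 1.16 (SE). It was 1.07 without knockout replicate 1 and 3.59 without knockout replicate 2. The other probe, A_55_P2052385, was well above background on 0 knockout arrays and 1 wild-type array and pointed the other way, at -1.06, so no direction is given for the gene. Gbp6 and Gbp10 are close relatives, and which of them a probe reads is uncertain.

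Among the IRG regulators, Igtp was lower on every knockout array than on any wild-type array, on a probe that was spotted 10 times per array. Its scaled log2 signal was -0.30, 0.20 and -0.14 on the knockout arrays, against 0.76, 0.23 and 0.81 on the wild-type arrays. The groups did not overlap, but only a small gap lay between knockout replicate 2 and wild-type replicate 2. The standard deviation between spots of 1 array was 0.10 to 0.14 on knockout arrays and 0.06 to 0.14 on wild-type arrays, against 0.26 and 0.32 between the arrays of each group, so arrays of a group differed by more than spots of an array did. The mean was -0.08 ± 0.26 in the knockout and 0.60 ± 0.32 in wild type (SD, n = 3 each), a log2 difference of -0.68 ± 0.25 (SE), or 1.6-fold lower in the knockout. Within slides it was -1.06, -0.03 and -0.94, near 0 on the slide of wild-type replicate 2. Without that replicate it was -0.86, and without knockout replicate 1 it was -0.57.

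Irgm1, the other regulator and a gene needed in mice for resistance to intracellular bacteria, did not differ beyond its error on either probe. On A_51_P262171 it gave 1.76, 3.42 and 3.16 in the knockout, against 2.82, 3.18 and 3.10 in wild type, with knockout replicate 1 the lowest and the other arrays close together. The log2 difference was -0.25 ± 0.44 (SE, n = 3 per group), with 0.26 without knockout replicate 1 and -0.57 without knockout replicate 2. On A_55_P1981479 it was 0.16 ± 0.23, with 0.14, 0.17 and 0.17 within the slides.

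Of the effectors, Tgtp1 was higher on every knockout array than on any wild-type array, and Iigp1 gave no single direction. Tgtp1 had scaled log2 signals of -0.46, -1.84 and -1.53 on the knockout arrays, against -2.26, -2.76 and -1.84 on the wild-type arrays. Knockout replicate 2 lay just above wild-type replicate 3, so the groups were apart by less than rounding shows. The mean was -1.28 ± 0.72 in the knockout and -2.29 ± 0.46 in wild type (SD, n = 3 each), a difference of 1.01 ± 0.42 (SE), with 1.81, 0.93 and 0.31 within the slides. Its tandem copy Tgtp2 is nearly identical, but the 2 probes gave different patterns. On the Tgtp2 probe the differences within the slides were 0.67, 3.43 and 1.81. Whether each probe reads only 1 of the 2 genes was not tested.

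Iigp1, an effector that coats parasite vacuoles, was read by 2 probes that disagreed. A_55_P2410304 was well above background on all 6 arrays and gave 0.13, -0.93 and -0.97 in the knockout, against -0.20, -2.70 and -1.17 in wild type. The groups overlapped, and the log2 difference was 0.76 ± 0.64 (SE, n = 3 per group). It was 0.09 without wild-type replicate 2, the lowest array, and 1.34 without wild-type replicate 1. A_55_P1990633 was well above background on 0 knockout and 2 wild-type arrays, with -4.89, -4.74 and -5.94 in the knockout, against -2.03, -3.98 and -1.85 in wild type. On that probe the groups did not overlap and the knockout was at least 2.15-fold lower, with no test because neither group had all its arrays above background. No direction is given for the gene.

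**Figure D4:**
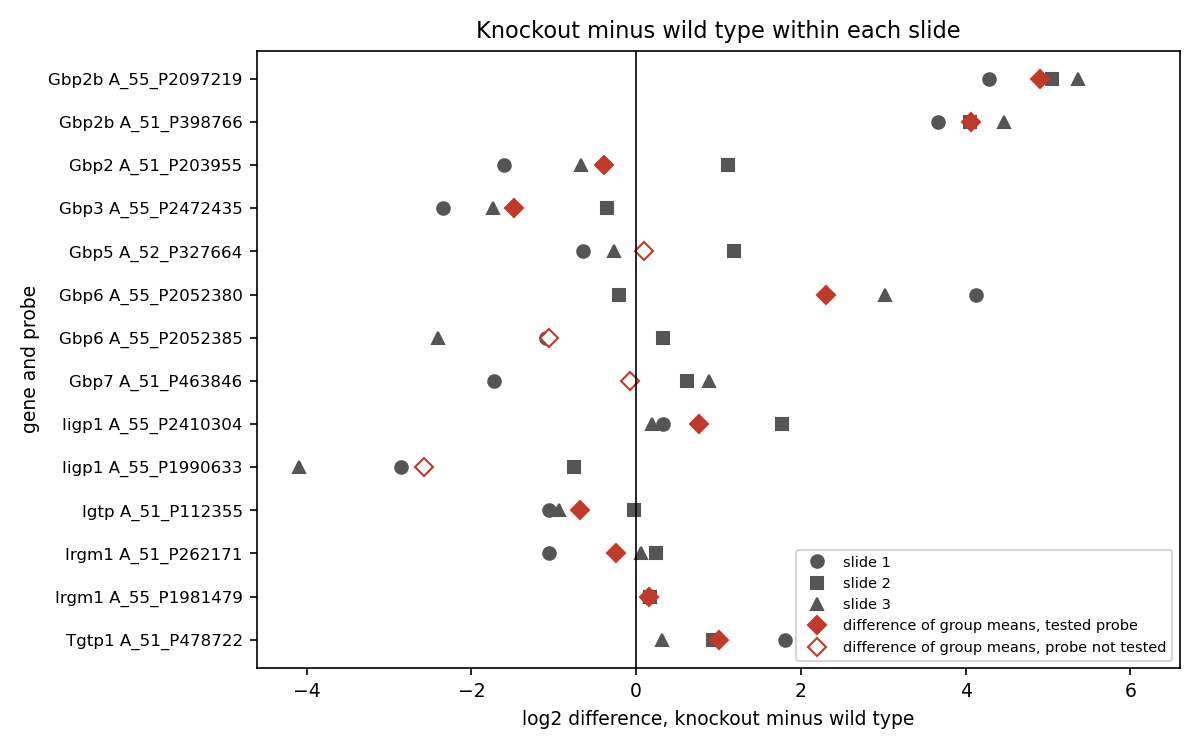
Log2 difference, knockout minus wild type (horizontal axis), within each of the 3 slides (grey symbols) and between the group means (diamonds, open where the probe was not tested), for the 14 probes of the 10 genes. Both Gbp2b probes lie at 3.66 or more on every slide, and on Gbp2, Gbp3 and Igtp slide 2 is the highest of the 3.

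Of the 10 genes 8 had a probe that could be tested, that is, detected on every array of the knockout or of the wild type, and Gbp5 and Gbp7 had none. In the limma fit over all probes 1 of the 8, Gbp2b, lay past the threshold of an adjusted p under 0.05, higher in the knockout, where 4.8% of 12470 genes passed, 3.3% higher and 1.49% lower, and its 2 probes were among the 2.88% of 24214 probes that passed and were higher. That is no test of Gbp2b, since this contrast chose it and it entered the fit only through the knockout arrays. On the probe of highest mean the measured differences of the 8 ran from -1.48 (Gbp3) to 4.90 (Gbp2b), 4 of them positive and 4 negative. Among the positive ones Gbp6 and Iigp1 each had a dimmer probe of opposite sign, and among the negative ones Irgm1 did, at 0.16. The groups did not overlap for 4 of the 8, Gbp2b and Tgtp1 higher and Gbp3 and Igtp lower, and for 5 of 10 tested probes, against 29.6% of all tested probes. Since this contrast chose the genes, nothing is read from these counts.

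Wild-type replicate 2 held the lowest wild-type signal for 5 of the 7 tested members other than Gbp2b, with a median of -0.71 against the mean of the other wild-type arrays. The gap was -1.94 for Gbp2, -1.51 for Gbp3, -2.02 for the brighter Iigp1 probe, -0.71 for Tgtp1 and -0.55 for Igtp. It was -0.06 for Gbp6 and 0.22 for Irgm1. Over all 12441 genes with a value on every array this replicate was the lowest for 54.6%, with a median of -0.19.

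Of the other GBP and IRG family genes, 16 of 19 listed were on the array and 9 could be tested. Of these 0 rose and 1 fell in the limma fit (2 higher and 2 lower at an unadjusted p under 0.05), and the median log2 difference was 0.19. Over all genes tested 3.3% rose and 1.49% fell, 14.4% were higher and 7.38% lower at an unadjusted p under 0.05, and the median was 0.08. Gm4951, an interferon-induced GTPase gene of the Iigp1 family, fell by 2.23 on the log2 scale (limma adjusted p = 0.0413), with means of -3.84 ± 0.80 in the knockout and -1.61 ± 0.45 in wild type (SD, n = 3 each). Of the knockout arrays only 1 detected it, with slide as a block its adjusted p was 0.115, and with normexp the difference was -0.63 and did not pass. Gbp9, of the chromosome 5 cluster, gave -1.32, -1.80 and -1.81 in the knockout, against -0.30, 0.58 and -0.56 in wild type. Its groups did not overlap, and its difference of -1.55 ± 0.34 (SE) did not pass (limma adjusted p = 0.055); here wild-type replicate 2 was the highest array. Tgtp2 gave 1.91, 3.80 and 3.12 in the knockout, against 1.25, 0.38 and 1.31 in wild type, a difference of 1.97 ± 0.51 that did not pass (limma adjusted p = 0.0833).

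The rest of the family differed less. Gvin1, a very large interferon-inducible GTPase, differed by 1.09 ± 0.34 (SE, n = 3 per group; limma adjusted p = 0.133), Gm5431 by 0.68, Irgq by 0.21, Gbp10 by 0.19, Irgm2, the other IRG regulator, by -0.12 and 9930111J21Rik1 by -0.23, none of them past the threshold. Gm12250 (the effector Irgb10) and 9930111J21Rik2 were above background on 2 arrays of each group, and Gbp4 on 1 of each, so they were not tested. Gbp8, Gm12185, F830016B08Rik and Irgc1 were above background on no array. Without wild-type replicate 2 the family median was -0.07, and Gbp9 passed beside Gm4951.

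The ligand of the pathway was not detected: the probe of Ifng was not well above background on any of the 6 arrays. Both chains of its receptor were detected on all arrays. Ifngr1, the ligand-binding chain, was 4.62 ± 0.20 in the knockout and 4.25 ± 0.13 in wild type (SD, n = 3 each), a difference of 0.37 ± 0.21 (SE). Ifngr2, the signalling partner chain, was 3.92 ± 0.20 in the knockout and 3.64 ± 0.22 in wild type. Neither passed (limma adjusted p = 0.346 and 0.509). The receptor kinases Jak1 and Jak2 differed by 0.56 ± 0.35 and -0.72 ± 0.39, and neither passed (limma adjusted p = 0.404 and 0.333). Jak2 gave 3.70, 3.97 and 3.80 in the knockout, against 5.21, 3.70 and 4.72 in wild type, with wild-type replicate 2 again the lowest. Without that replicate Jak2 differed by -1.14 and passed (limma adjusted p = 0.0428).

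Of 14 tested genes of interferon ligands, receptors and JAK-STAT, 0 rose and 1 fell in limma, against 3.3% and 1.49% of all genes tested. At an unadjusted p under 0.05 there were 0 higher and 2 lower, against 14.4% and 7.38% of all genes. The list median was 0.23. The gene that fell was Usp18, which removes ISG15 from proteins and damps the type I interferon receptor. Its scaled log2 signal was -0.85, -1.38 and -0.93 in the knockout, against 1.91, 1.20 and 1.69 in wild type, with no overlap. It fell by 2.65 on the log2 scale (limma adjusted p = 0.00641, and 0.0271 with slide as a block), by nearly the same on each slide (-2.76, -2.58 and -2.61), and passed in 14 of 15 alternatives. Among 6 tested interferon regulatory factors and co-activators 0 rose and 0 fell in limma (0 higher and 2 lower at an unadjusted p under 0.05, Irf7 and Irf2), with a median of -0.12. Irf1, which binds the ISRE of GBP genes, gave 2.74, 3.51 and 3.16 in the knockout, against 3.89, 2.26 and 3.63 in wild type, a difference of -0.12 ± 0.45 with overlapping groups. The difference was -0.62 without wild-type replicate 2 and did not pass. Irf7 differed by -1.70 ± 0.45 and did not pass (limma adjusted p = 0.0883), nor did Irf2 at -0.51 ± 0.21 (limma adjusted p = 0.228). Without wild-type replicate 2 Irf7 differed by -2.07 and passed (limma adjusted p = 0.0399).

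Genes that interferon gamma induces beside the GBPs, with antigen presentation and chemokine genes, did not pass. Of 18 tested 0 rose and 0 fell in limma, against 3.3% and 1.49% of all genes tested. At an unadjusted p under 0.05 there were 2 higher and 2 lower, against 14.4% and 7.38% of all genes. The differences ran from -1.84 to 2.48, with a median of -0.13. The smallest p belonged to H2-K1, a class I antigen-presenting molecule, at -0.99 ± 0.22 (SE, n = 3 per group; limma adjusted p = 0.0577) and to Cd274, the T cell inhibitor PD-L1, at -1.64 ± 0.47 (limma adjusted p = 0.105). The medians within slides were -0.42, 0.27 and -0.39. Without wild-type replicate 2 the median was -0.31 and 4 genes, Ccl5, H2-K1, Psmb8 and Psmb9, passed, all lower.

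Of 29 tested genes of the type I interferon list 1 rose and 5 fell in limma, against 3.3% and 1.49% of all genes tested. At an unadjusted p under 0.05 there were 3 higher and 13 lower, against 14.4% and 7.38% of all genes. The median was -0.50, with 9 differences positive and 20 negative. This list and the others were chosen with earlier results of these data known, in which interferon genes were lower. Their counts and p-values, that of Usp18 included, are therefore a description and no independent test. Oasl1, a 2′-5′ oligoadenylate synthetase-like protein, gave -4.73, -2.39 and -3.00 in the knockout, against 0.56, 1.22 and 0.90 in wild type, and fell by 4.26 on the log2 scale (limma adjusted p = 0.0163). It was well above background on 2 of the 3 knockout arrays, so the size rests partly on a background value, and with normexp the difference was -2.54 and still passed. Oas1a, an oligoadenylate synthetase that activates RNase L, fell by 2.21 and Ifi44 by 2.02 (limma adjusted p = 0.0361 and 0.0412), but with normexp their differences were -1.41 and -1.01 and neither passed (limma adjusted p = 0.0574 and 0.114). The other two that fell were Oas2, which did not pass with normexp (-0.52), and Isg15, and all 5 were lower on every slide. Ifi27l2a rose by 2.15 ± 0.18 (limma adjusted p = 0.00415), with 2.85, 2.84 and 2.70 in the knockout, against 0.63, 0.58 and 0.74 in wild type. With slide as a block 3 of the 6 passed, Ifi27l2a, Oasl1 and Ifi44, and the adjusted p of Oas1a was 0.0625. The list median was -1.20, 0.14 and -0.71 within slides and -0.78 without wild-type replicate 2, where 2 genes rose and 8 fell; without wild-type replicate 3 a single gene passed.

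**Figure D5:**
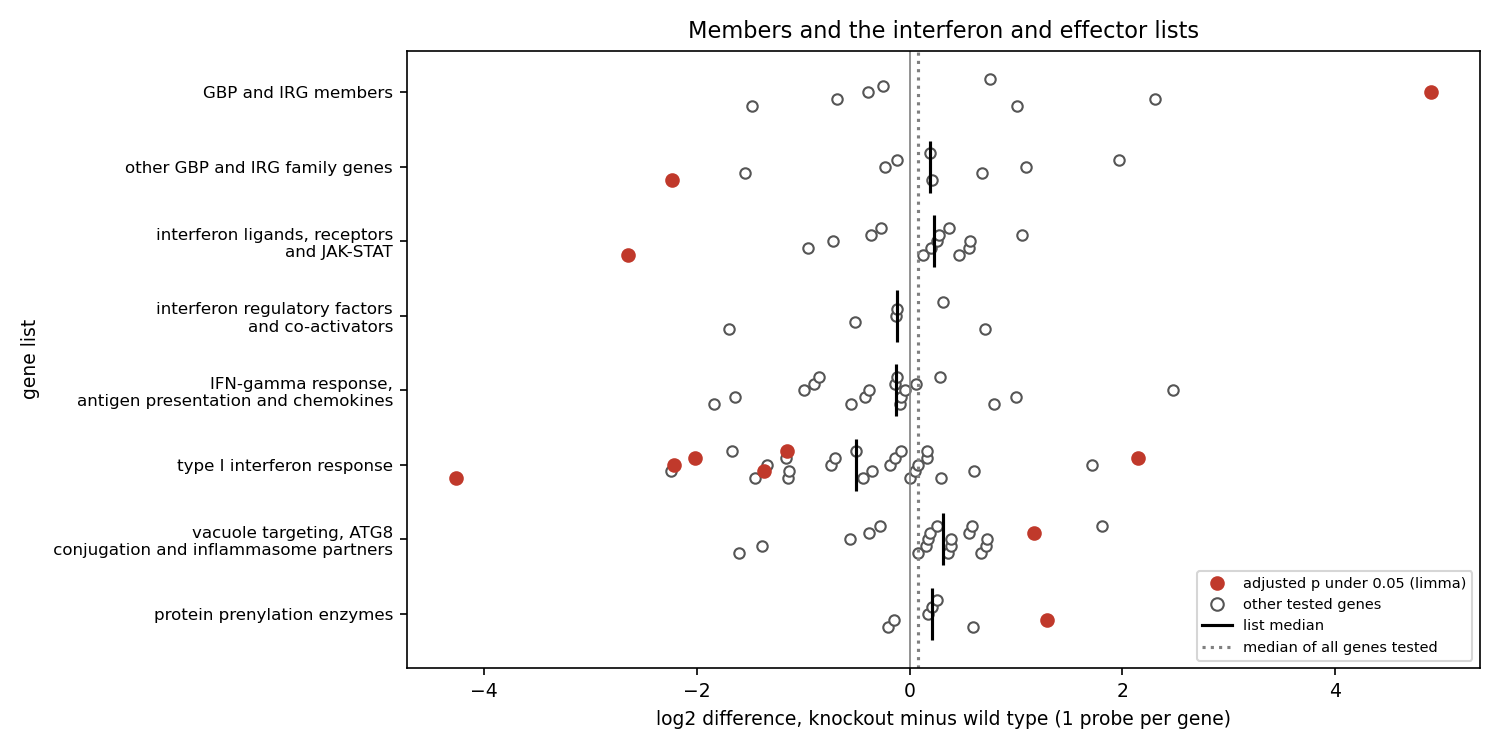
Log2 difference, knockout minus wild type (horizontal axis), of each tested gene of the GBP and IRG members and of 7 gene lists, 1 probe per gene; red points passed limma at an adjusted p under 0.05, black bars are list medians (none is drawn for the members) and the dotted line the median of all genes tested, 0.08. Gbp2b at 4.90 is the only red point in the members' row, and the type I list has its median at -0.50.

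Partners of the GBPs and IRGs at the vacuole and the enzymes that prenylate GBPs each held 1 gene that passed. Over all genes tested 3.3% rose and 1.49% fell in limma, and 7022 of 12470 differences were positive. At an unadjusted p under 0.05, 14.4% of all genes were higher and 7.38% lower. Of 20 tested genes of vacuole targeting, ATG8 conjugation and the inflammasome, 1 rose and 0 fell in limma (6 higher and 1 lower at an unadjusted p under 0.05), with 15 differences positive and a median of 0.31. The gene was Map1lc3b, the ATG8 family protein LC3B, with means of 5.46 ± 0.09 in the knockout and 4.29 ± 0.34 in wild type (SD, n = 3 each), a rise of 1.17 ± 0.23 (SE; limma adjusted p = 0.0428, 0.0995 with slide as a block and 0.0744 with normexp). Of 7 prenylation genes 1 rose and 0 fell in limma (1 higher and 0 lower at an unadjusted p under 0.05), with a median of 0.21. It was Fdps, which makes the farnesyl precursor of prenyl groups, with means of 5.90 ± 0.24 in the knockout and 4.61 ± 0.10 in wild type, a rise of 1.29 ± 0.21 (limma adjusted p = 0.0246, and 0.0683 with slide as a block).

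The genes whose pattern over the 6 arrays was most like that of Gbp2b, by Pearson correlation of scaled log2 signal among 12470 genes, were Rab40b, Tspan8, Tescl, Ddx4 and Agtr1a, at 0.996 to 0.997. All were higher in the knockout, by 2.33 for Rab40b to 6.78 for Ddx4 as measured, and Tescl, Ddx4 and Agtr1a shared with Gbp2b that no wild-type array was well above background. With wild-type values at background, these correlations largely repeat the gap between the groups. For Igtp they were Dhx34, Cdkn2aipnl, Mfsd2a, Tpbg and Abcb1b, at 0.989 to 0.993, with differences from -1.22 (Mfsd2a) to -0.50 (Cdkn2aipnl). None of these 10 genes is a GBP, an IRG or on the interferon lists, and the 6 arrays share slides in pairs, so these correlations describe the pattern of these arrays only.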

How the data were processed

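Total RNA of 6 fibroblast cultures was measured on 1-colour Agilent arrays. The authors deposited scanner tables whose processed intensity, background-subtracted, came from Feature Extraction 10.7.3.1, per the file headers; the submitters' processing notes name 9.1. The authors also deposited log2 values for 35844 probes, with column medians of 5.51 to 5.76, with a between-array normalization not given in the sources used here; they served as an alternative.

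Control and outlier spots were left out and repeated spots averaged (55681 probes, of which 259 lacked a value on some array). Each array's 75th percentile of log2 intensity over probes was subtracted. The 24214 probes detected on every array of either group entered 1 limma fit (version 3.58.1, R 4.3.3; lmFit, eBayes); tests were two-sided and p-values Benjamini-Hochberg adjusted over all of them, with a threshold of 0.05. Detection means flagged well above background, and no spot was saturated. Standard errors are moderated, and the number of arrays limits the precision. Probes were named by RefSeq accession through a GRCm38.p6 table (26413, 47.4%), and a gene by its tested probe of highest mean. The array design was annotated on another build, so only names, gene order and promoter sequences were taken from that table. The code was tested on simulated data.

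The members and lists were chosen with earlier results of these data known. Named were all members, Mmp19, fixed pathway genes (Ifng, Ifngr1, Ifngr2, Jak1, Jak2, Irf1; another is not reported here), the measured family genes, up to 4 genes past the threshold per list (up to 2 by p where none passed) and the 5 genes most like Gbp2b and Igtp; Oas2, Isg15 and the genes that passed only without wild-type replicate 2 were named after their values were seen. Groups and replicate numbers come from the titles. The series describes independent experiments but the labels do not tie arrays to animals, so p-values measure the spread between these arrays. Replicate number, slide and scan coincide, and deviations from group means correlated at 0.096, -0.021 and 0.210 within the 3 numbers, so no pairing was modelled; each slide carried both groups, and values within slides are given as for a batch. Alternatives covered background correction, normalization, filters, the authors' values, the replicate block, the prior and leaving out each array.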

Additional observations from a re-analysis of the deposited data

How the results depend on the processing

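As a description, since this contrast chose the members, the log2 differences of the Gbp2b probes ran from 1.51 to 5.10 and from 1.13 to 4.30 over 14 alternatives. Gbp3 ran from -1.99 to -1.16 and Igtp from -0.86 to -0.50 over 15 alternatives. The count of members past the threshold, 1, was 0 over probes above background on all 6 arrays, where Gbp2b is not tested, and 2 with the authors' deposited log2 values (Igtp added) and without wild-type replicate 2 (Gbp3 added); leaving out 1 array gave 1 to 2. Over all probes the count, 1124, was 633 with normexp, 113 with no filter on dim probes, 650 over probes above background on all 6 arrays, 385 with the replicate block, which is also the slide block, and 107 (without knockout replicate 3) to 1716 (without wild-type replicate 2) when 1 array was left out. The share of higher calls, 62%, was 51.9% when arrays were scaled to the 75th percentile of probes detected on all arrays and 48.8% without wild-type replicate 2. Of the genes named as past the threshold, Gm4951, Oas1a, Oas2, Isg15, Map1lc3b, Fdps and the markers Col1a1, Col1a2 and Lrrn4 did not pass with the replicate block, it changed no call of a member, and with normexp Gm4951, Oas1a, Ifi44, Oas2 and Map1lc3b did not pass; with no filter on dim probes only Usp18 and Ifi27l2a of the named list genes did. The other family list had 0 genes past the threshold with normexp, with no filter, over probes above background on all 6 arrays and with the replicate block, and 0 to 2 when 1 array was left out, with a median of -0.07 to 0.27. The type I list, 6, had 3 with normexp, 1 with no filter, 3 with the replicate block and 1 to 10 when 1 array was left out. The interferon gamma list, 0, had 1 with quantile normalization, with either scaling to detected probes, with the authors' deposited log2 values and with the trended robust prior, and 0 to 4 when 1 array was left out. The vacuole list, 1, had 0 with normexp, with no filter and with the replicate block, and 0 to 3 when 1 array was left out. The prenylation list, 1, had 0 with no filter and with the replicate block, and 0 to 1 when 1 array was left out. Leaving out 1 array gave 0 to 2 for the ligand and receptor list and 0 to 1 for the regulatory factors, whose median ran from -0.36 to 0.05. The cause of these shifts was not tested. Array weights did not converge and were not run. Gbp5, Gbp7, Ifng and the dimmer Gbp6 and Iigp1 probes lay too near background for a test.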
